A study of Mus musculus with 2 samples.

Results

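Alveolar fibroblasts of the mouse lung that held more RNA of Slc7a10, Tcf21, Figf and Scube2 than of C4b, Rbp4, Steap4 and Tnfsf13b are described here. They were 578 of 4687 barcodes, 243 from a Cherry_positive and 335 from a Cherry_negative library. Each library came from CD45- lung cells, which lack the surface protein of leukocytes, sorted by flow cytometry from mice given Labelling-4T1 cells by vein 7 days earlier. The 4T1 line comes from a mammary carcinoma of the mouse, and its Labelling version is known to release an mCherry protein that enters nearby cells. Cells were thus compared between a library with and a library without the Cherry signal, both from lungs that had received tumour cells. Strain, sex, age, the number of mice and any irradiation of these mice are not stated in the labels, although the series title speaks of radiation. The sort gate defines the groups, and the labels name no lung without tumour cells.

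The cells were chosen by raw counts of unique molecular identifiers (UMIs), each standing for 1 captured RNA molecule. Barcodes with at least 500 genes and at most 10% mitochondrial UMIs were kept, which left 4581. Mesenchymal cells had at least 4 UMIs over Col1a1, Col1a2, Col3a1, Bgn and Dcn and fewer over 4 endothelial genes. Alveolar fibroblasts were the 1008 of them with at least 2 UMIs over Npnt, Tcf21, Limch1, Ces1d, Fgfr4 and Slc7a10, and more than over the marker sums of adventitial fibroblasts, myofibroblasts or pericytes. Among these, cells with 0.5% or more of their UMIs in Cxcl9, Cxcl10 and Ccl7 formed a chemokine-high state, and cells with 3 or more UMIs of Fst, Tnc, Tfpi2 and Wisp1 a state of Fst and Tnc. The remaining cells were divided by whether the Slc7a10 sum or the C4b sum was larger, with ties kept apart. Every value of these genes therefore describes the choice and is no finding.

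Alveolar fibroblasts lie in the walls between air spaces, next to the alveolar epithelium and the capillaries. They make much of the elastic and collagen matrix of the gas exchange region, store retinoids and lipid, and secrete growth factors that maintain type 2 alveolar epithelial cells. Tcf21 is a transcription factor of lung mesenchyme, Slc7a10 a transporter of small neutral amino acids and Figf the gene of vascular endothelial growth factor D. Scube2 encodes a secreted protein that helps release hedgehog ligands. Fibroblasts exposed to cytokines can make chemokines and acute phase proteins, secreted products of the early inflammatory response.

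The labelled cell type was checked on markers that the choice did not use. These markers were picked with earlier results of these data known, so the check is not an independent one. All 13 such alveolar fibroblast markers were detected in both libraries, Nebl and Mfap4 among them, and they summed to 30356 CPM with the Cherry signal and 44864 CPM without it. CPM means UMIs of a gene per 1000000 UMIs of the cells summed. Most of either sum came from Mfap4, Gpx3 and Inmt, at 12548, 7039 and 6455 CPM in the Cherry_positive cells. Detection by itself says little, since all 9 endothelial markers were detected in both libraries too. The 11 adventitial markers summed to 2255 and 2488 CPM and the 9 myofibroblast markers to 913 and 908 CPM, but some of these served in the choice. The 6 smooth muscle markers summed to 645 and 463 CPM. Of the 6 markers given for these cells, Slc7a10, Tcf21, Figf and Scube2 served in the choice, so their detection checks nothing. The word resting is not used here for the Cherry_positive cells, since their level of the acute phase gene Saa3 was 4666 CPM, against 275 CPM in endothelial cells of the same library and 96.5 CPM in the Cherry_negative cells. That RNA was uneven, as 24 of 237 cells thinned to 2000 UMIs held 77.1% of it. The cells of both libraries are called Slc7a10 and Tcf21 fibroblasts below.

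The 2 libraries held 10094853 and 11632459 UMIs over 1826 and 2861 barcodes. The Slc7a10 and Tcf21 fibroblasts gave 1007151 and 1098095 UMIs, with medians of 3718 and 3066 UMIs and 1632 and 1421 genes per cell. Their median mitochondrial shares were 2.81% and 2.73%. The libraries shared 13 barcodes, carried by 2 and 2 of these cells, and no cell pair in this set had the same barcode in both. Malat1, an RNA retained in the nucleus, was under 0.5% of UMIs in 38 of 243 Cherry_positive and 7 of 335 Cherry_negative cells. With 1 library per group there is no replicate and no test, so each difference is between these 2 libraries. All intervals are at 95% and cover counting error only.

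RNA of other cells was present unequally. The sum of 9 type 2 alveolar epithelial (AT2) markers was 206 CPM in the Cherry_positive and 6684 CPM in the Cherry_negative Slc7a10 and Tcf21 fibroblasts, and that of 6 type 1 (AT1) markers was 108 and 1122 CPM. Of the AT1 markers, Rtkn2, Aqp5 and Akap5 were at 0 in the Cherry_positive library. The 9 endothelial markers summed to 153 and 390 CPM. The 9 macrophage or monocyte markers summed to 20.9 and 458 CPM, with Adgre1, C1qc, Mrc1 and Marco at 0 in both. Lyz2 counts in this list and in the AT2 list. The 6 leukocyte markers summed to 13.9 and 9.11 CPM. Airway epithelial markers stood at 812 and 497 CPM, neutrophil markers at 94.3 and 11.8 CPM and red cell markers at 144 and 16.4 CPM. The leukocyte gene Ptprc was at 0 in both libraries, as were all 5 T or NK cell and all 4 B cell markers. The part of this RNA and of low Malat1 in the differences below was not tested, except where a value without such cells is given.

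Slc7a10 and Tcf21 fibroblasts were the main state of alveolar fibroblasts without the Cherry signal and a minority with it. They were 243 of 620 alveolar fibroblasts in the Cherry_positive library, 39.2% (35.3 to 43.2), and 335 of 388 in the Cherry_negative library, 86.3% (82.5 to 89.6). The intervals do not overlap. Of all mesenchymal cells they were 18.1% (16.1 to 20.3) and 44.4% (40.8 to 48.1). Of all kept cells, in contrast, they were 13.7% (12.2 to 15.4) and 11.9% (10.7 to 13.2), with overlapping intervals, since mesenchymal cells were 1339 of 1770 Cherry_positive and 754 of 2811 Cherry_negative cells. All of these are shares of sorted cells, and the part of the sort gate in them was not tested.

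**Figure D1:**
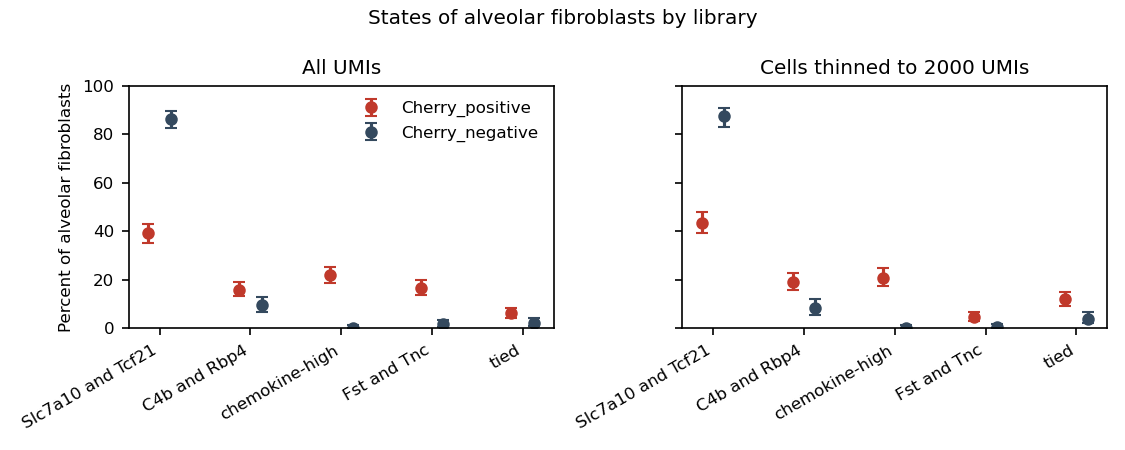
Share of each state among alveolar fibroblasts in percent (points) with exact 95% binomial intervals (bars), by library, from all UMIs (left) and after thinning each cell to 2000 UMIs (right). The Slc7a10 and Tcf21 state held 39.2% of Cherry_positive and 86.3% of Cherry_negative alveolar fibroblasts from all UMIs, and 43.6% and 87.4% after thinning.

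The other Cherry_positive alveolar fibroblasts were spread over several states. The chemokine-high state held 136 cells against 1 cell, the Fst and Tnc state 104 against 6, and the C4b and Rbp4 state 99 against 37. Ties were 38 and 9 cells. Since depth differs between the libraries, each cell was also thinned to 2000 UMIs and sorted into states again, leaving out 34 and 631 shallower cells. The shares of Slc7a10 and Tcf21 fibroblasts among alveolar fibroblasts were then 43.6% (39.2 to 48.0) and 87.4% (83.2 to 90.9). The Fst and Tnc state, which needs 3 UMIs at any depth, fell to 23 and 1 cells. The chemokine-high state then held 107 and 0 cells, the C4b and Rbp4 state 98 and 26, and ties 61 and 12.

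Cherry_positive cells lay closer to the dividing lines. Over the chosen cells the Slc7a10 sum exceeded the C4b sum by a median of 5 UMIs per Cherry_positive cell and 10 UMIs per Cherry_negative cell. Just inside the line, with an excess of 1 UMI, there were 37 and 7 cells, and just outside, at a tie, 38 and 9 cells. With an excess of at least 3 UMIs there were 181 and 315 cells. At the line of the Fst sum, 26 and 17 cells with 2 UMIs were inside and 28 and 2 cells with 3 UMIs outside. Chemokines took between 0.25% and 0.5% of UMIs in 13 and 3 cells just inside, and no chemokine UMI was found in 133 and 306 of the chosen cells.

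All 4 genes of the Slc7a10 sum were lower in the Cherry_positive cells, which describes where the libraries lie within the state. Slc7a10 (GRCm38, chromosome 7, 35186385 to 35201114, plus strand) was at 275 CPM (244 to 309) in the Cherry_positive and 674 CPM (626 to 724) in the Cherry_negative cells. Tcf21 (chromosome 10, 22817281 to 22820174, minus strand) was at 1025 CPM (963 to 1089) and 1775 CPM (1697 to 1855). Figf was at 722 and 1140 CPM and Scube2 at 250 and 324 CPM. Ces1d, a carboxylesterase gene that also served in the choice, lay the other way, at 2351 and 1873 CPM. Slc7a10 UMIs were found in 0.395% and 1.12% of endothelial cells, a type that should lack it, against 54.3% and 79.7% of the Slc7a10 and Tcf21 fibroblasts. The median depths of these endothelial cells were 3248 and 2486.5 UMIs.

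Within the Slc7a10 and Tcf21 state, levels of several acute phase and defence genes were much higher with the Cherry signal, above all that of Saa3. Of 6717 gene IDs with at least 30 UMIs, 179 (2.66%) were at least 2-fold higher in the Cherry_positive and 228 (3.39%) at least 2-fold lower. Genes of the choice are not among the counts. The 12 genes named each way are those whose ratio interval lay farthest from 1.

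Saa3 (chromosome 7, 46711998 to 46715700, minus strand) encodes a serum amyloid A protein of the acute phase that is made outside the liver. It had 4699 UMIs in the 243 Cherry_positive cells and 106 UMIs in the 335 Cherry_negative cells. These are levels of 4666 CPM (4533 to 4801) and 96.5 CPM (79.0 to 117), a ratio of 48.3 (39.9 to 59.2). UMIs were found in 61.7% of Cherry_positive and 3.88% of Cherry_negative cells, and in 36.4% and 2.70% of endothelial cells of the same libraries, where the levels were 275 and 16.3 CPM. The share among Cherry_negative cells was thus close to that of their endothelial cells, although the level was higher, at 96.5 against 16.3 CPM. A single cell held 41.5% of the 106 UMIs. On the log2 scale the ratio was 5.59, and it was 5.42 in cells with an excess of at least 3 UMIs and 5.44 without cells of low Malat1. After thinning and choosing cells anew it was 3.43, and it was 7.32 in cells with at least 1000 genes and at most 5% mitochondrial UMIs.

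**Figure D2:**
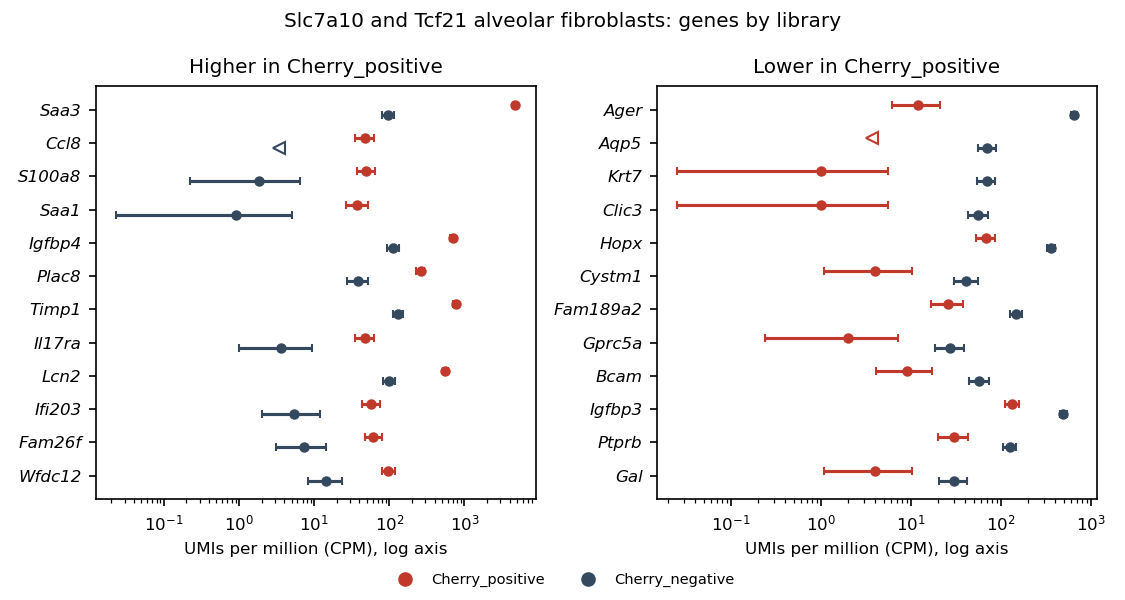
Levels in Slc7a10 and Tcf21 fibroblasts in CPM on a log axis (points) with exact 95% Poisson intervals (bars) for the 12 genes named on the higher side (left) and the lower side (right). Open triangles mark the upper bound where no UMI was counted. Saa3 stood at 4666 CPM in the Cherry_positive and 96.5 CPM in the Cherry_negative library, and Igfbp3 at 133 and 493 CPM.

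Lcn2, Timp1 and a cytokine receptor gene were higher too. Saa1, a second serum amyloid A gene, had 38 UMIs and 1 UMI, a ratio of 41.4 (7.00 to 1679). Lcn2 (chromosome 2, 32384633 to 32388252, minus strand), whose product withholds iron from bacteria, was at 557 CPM (512 to 605) and 99.3 CPM (81.5 to 120), a ratio of 5.61 (4.56 to 6.95). Timp1, which encodes an inhibitor of matrix metalloproteinases, was at 766 CPM (712 to 822) and 131 CPM (111 to 154), a ratio of 5.84 (4.88 to 7.02). Il17ra encodes a subunit of the receptor for the cytokine interleukin 17. It had 48 and 4 UMIs, a ratio of 13.1 (4.79 to 49.96), and was seen in 42 and 4 cells.

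Igfbp4 (chromosome 11, 99041244 to 99054392, plus strand), whose product binds insulin-like growth factors, had levels of 696 CPM (645 to 750) and 113 CPM (93.9 to 135), a ratio of 6.16 (5.09 to 7.52). Plac8 was at 260 and 38.2 CPM, a ratio of 6.80 (4.90 to 9.66). The interferon-inducible genes Ifi203 and Fam26f had ratios of 10.5 (4.56 to 29.9) and 8.45 (4.03 to 20.4), and Wfdc12, of the whey acidic protein family, 6.68 (3.91 to 12.1). For the other two genes named, most UMIs came from 1 cell. Ccl8, a monocyte attractant, had 48 UMIs and 0, so it was at least 17.4-fold higher when 0 is replaced by 3 counts, with 97.9% of them in 1 cell. S100a8, a protein of neutrophils and inflamed tissue, had 50 and 2 UMIs, with 92.0% in 1 cell. Ccl8 UMIs were seen in 2 and 0 cells and S100a8 UMIs in 5 and 2 cells.

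Regulatory sequence before the start sites is shown for Saa3 and Timp1, which were higher with the Cherry signal, and for Slc7a10, which gave the state its name. The sequences are those of RefSeq on GRCm38.p6, 5′ to 3′ on the strand of the gene. Up to 250 bases before the listed start were used, less 24 bases for Saa3 that GENCODE places in an exon. The regions are chr7:46715701-46715926 (minus strand) for Saa3, chrX:20869916-20870165 (plus strand) for Timp1 and chr7:35186135-35186384 (plus strand) for Slc7a10. Capitals mark matches to motifs on either strand, namely TTNCNNAA of C/EBP factors, a motif of interferon-regulated genes with GAAA at either side of 2 bases and the kappa B motif.
Saa3: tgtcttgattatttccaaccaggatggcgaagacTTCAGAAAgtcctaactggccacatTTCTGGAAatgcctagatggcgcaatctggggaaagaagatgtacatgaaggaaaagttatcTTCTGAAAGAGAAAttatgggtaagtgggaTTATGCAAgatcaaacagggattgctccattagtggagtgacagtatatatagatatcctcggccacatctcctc
Timp1: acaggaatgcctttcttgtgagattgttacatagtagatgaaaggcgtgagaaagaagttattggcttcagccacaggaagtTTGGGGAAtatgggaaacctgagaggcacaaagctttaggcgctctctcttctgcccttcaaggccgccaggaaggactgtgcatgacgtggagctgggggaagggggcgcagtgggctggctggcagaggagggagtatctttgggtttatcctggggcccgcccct
Slc7a10: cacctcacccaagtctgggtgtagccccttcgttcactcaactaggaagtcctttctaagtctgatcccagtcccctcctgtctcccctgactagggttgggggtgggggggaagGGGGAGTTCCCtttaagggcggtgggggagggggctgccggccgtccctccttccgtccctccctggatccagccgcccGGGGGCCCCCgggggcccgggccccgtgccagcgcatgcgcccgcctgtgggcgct

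In the Saa3 window TTNCNNAA matched at 4 positions, the nearest at 99 to 92 bases before the listed start, and the interferon motif matched at 125 to 116 bases before it, overlapping a TTNCNNAA match. The Timp1 window held 1 match to TTNCNNAA, and the Slc7a10 window matched only the kappa B motif. Promoters were matched for 10 of the 12 genes on the higher side, and 7 of them (Saa3, S100a8, Saa1, Plac8, Timp1, Lcn2 and Wfdc12) held TTNCNNAA within 250 bases. The same motif was found in 36.9% of 27025 promoters and in 0 of 9 matched promoters on the lower side. The interferon motif was found in 3.04% and the kappa B motif in 7.01% of all promoters, and each in 1 of the 10 on the higher side. TATAAA was in 13% of all promoters and 3 of these 10, and the glucocorticoid half-site AGAACA in 16.2% and 0 of these 10. TTCNNNGAA of STAT factors, in 7.18% of all promoters, was found in 0 of the 10 promoters on the higher side. None of these motifs was found in the 9 promoters on the lower side. A match says only that these letters occur in the window.

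Genes lower with the Cherry signal formed an epithelial group and a mixed group. Ager, Aqp5, Krt7, Clic3, Hopx, Cystm1 and Gprc5a are genes of AT1 or other epithelial cells. Hopx differed from the rest, with 554 and 624 CPM in endothelial cells beside 316 and 654 CPM in epithelial cells. It was seen in 22.2% and 33.1% of the Slc7a10 and Tcf21 fibroblasts, at 1.70 and 8.03 times its level in other alveolar fibroblasts. Ager, the receptor for advanced glycation end products, was at 11.9 CPM (6.16 to 20.8) and 646 CPM (599 to 695). Aqp5, a water channel, had 0 and 77 UMIs, at least 23.5-fold lower. A single Cherry_negative cell held 35.3% of the Ager, 40.3% of the Aqp5 and 39.5% of the Krt7 UMIs, and the sum of AT1 markers, Ager, Aqp5 and Hopx among them, was 108 and 1122 CPM. In cells without a UMI of Epcam, Cdh1, Ptprc, Laptm5, Pecam1 or Cdh5 the log2 ratio of Ager was -1.93 in place of -5.70 and that of Cystm1 -0.01 in place of -3.21. That of Gprc5a, with 2 and 30 UMIs in all cells, turned from -3.48 to 2.31. That of Krt7, with 1 and 76 UMIs, turned from -5.55 to 1.87 after thinning. Of the 228 lower genes, 36 were 10 times higher in endothelial, epithelial or leukocyte cells. Without such genes the counts were 172 higher (2.59%) and 192 lower (2.89%). Ager, Aqp5, Krt7, Clic3, Cystm1 and Gprc5a fell short of that limit and remain in the 192, which are thus not free of epithelial genes. Ager, for example, was at 3733 CPM in Cherry_negative epithelial cells.

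Igfbp3 (chromosome 11, 7206086 to 7213923, minus strand), the main carrier of insulin-like growth factors in blood, had the most UMIs in the other group. It was at 133 CPM (111 to 158) and 493 CPM (452 to 536), 3.70-fold lower (3.06 to 4.51). The log2 ratio was -1.88, and -1.92 in cells without a UMI of another lineage. Fam189a2 was at 25.8 CPM (16.9 to 37.8) and 148 CPM (126 to 172), 5.71-fold lower (3.76 to 9.01). Ptprb, a receptor phosphatase gene best known from endothelium, was at 29.8 and 125 CPM, 4.19-fold lower (2.81 to 6.44). Bcam, a laminin-binding adhesion molecule, had 9 and 63 UMIs. In the Cherry_negative library it was at 57.4 CPM in the chosen cells, against 411 CPM in epithelial and 362 CPM in endothelial cells. The neuropeptide gene Gal had 4 and 33 UMIs, with 78.8% of the 33 in 1 Cherry_negative cell.

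The gene lists show how far these differences reached. Members with at least 10 UMIs over both libraries counted as measured, and the value given for a list is the median log2 ratio of Cherry_positive over Cherry_negative. Over the 9656 genes measured with a symbol of their own the median was -0.04, and 4543 of them were above 0. By this rule 4.44% of 9674 gene IDs were at least 2-fold higher and 6.22% at least 2-fold lower.

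**Figure D3:**
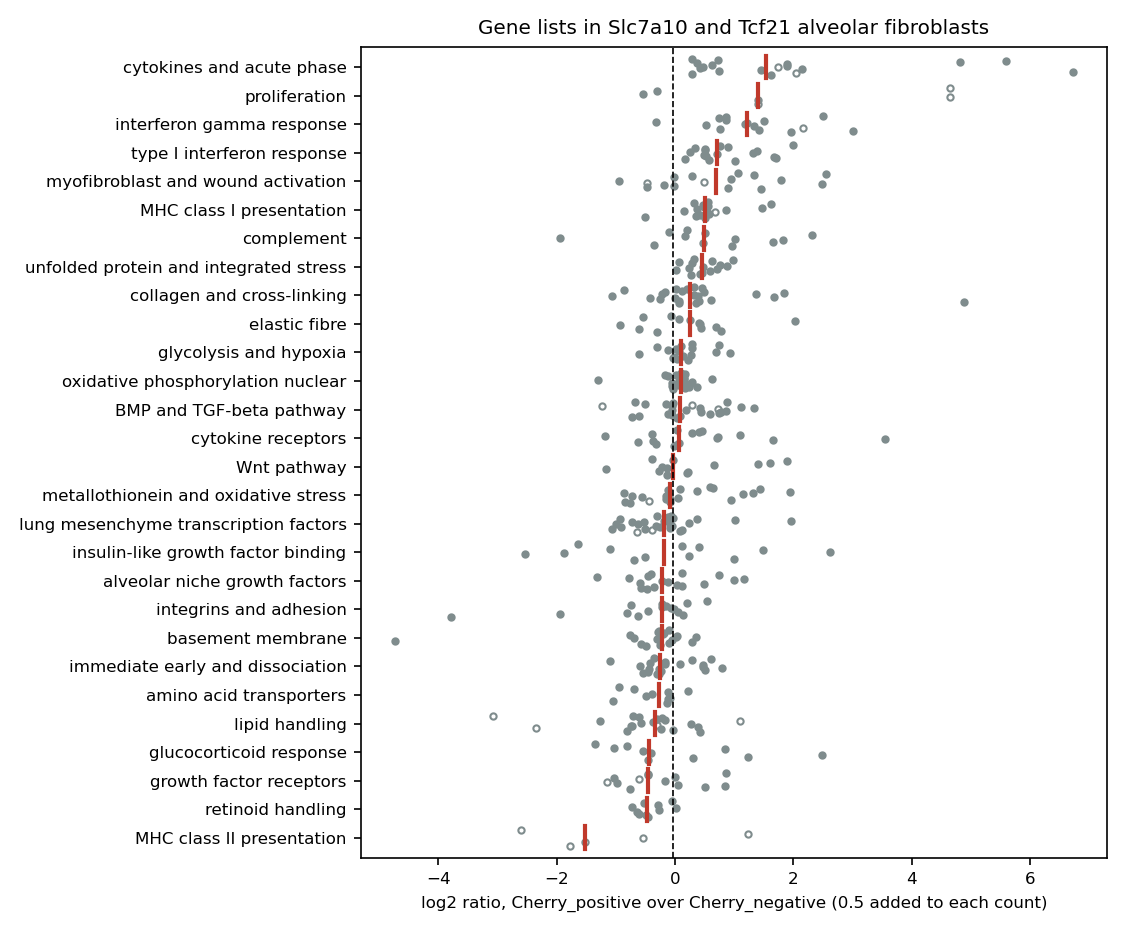
Log2 ratio of Cherry_positive over Cherry_negative levels for each measured member of the 28 gene lists (points, open where the gene was 10 times higher in another lineage), with the list median (red bar) and the median of all genes (dashed line). Cytokines and acute phase genes had a median of 1.53, interferon gamma response genes 1.21 and retinoid handling genes -0.47.

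All 18 measured cytokine and acute phase genes were above 0, with a median of 1.53, and 10 were at least 2-fold higher. The median was 1.09 without the 2 members that were 10 times higher in another lineage. Haptoglobin (Hp), an acute phase scavenger of haemoglobin, was at 602 CPM (555 to 652) and 161 CPM (138 to 187). Interleukin 6 (Il6), which drives the acute phase, was at 384 and 104 CPM. Cxcl12, which holds Cxcr4-bearing leukocytes and stem cells in place, was at 264 CPM (233 to 298) and 59.2 CPM (45.7 to 75.4), and the neutrophil attractant Cxcl1 at 719 and 264 CPM. In contrast, the monocyte attractant Ccl2 was close in both libraries, at 325 CPM (290 to 362) and 268 CPM (238 to 300), and the log2 ratios of Tslp, Nfkbia and Cxcl14 were 0.29, 0.37 and 0.42.

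Genes induced by interferons were higher too, by less. For the interferon gamma list the median was 1.21, with 9 of 15 members at least 2-fold higher and 0 at least 2-fold lower. Iigp1, an immunity-related GTPase, was at 1054 CPM (992 to 1120) and 455 CPM (416 to 497), and the guanylate-binding protein gene Gbp2 at 147 and 54.6 CPM. Irf1, a transcription factor gene, lay the other way at 157 and 197 CPM. The median was 0.79 in cells with an excess of at least 3 UMIs and 1.23 without cells of low Malat1. For type I interferon genes the median was 0.71, with all 17 members above 0 and 6 at least 2-fold higher. Zbp1, a sensor of Z-form nucleic acid, was at 150 and 37.3 CPM and Isg15, a ubiquitin-like modifier, at 249 and 95.6 CPM.

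Genes that present antigen on MHC class I had a median of 0.50, and 2 of 17 were at least 2-fold higher. These were the peptide transporter Tap1, at 104 and 33.7 CPM, and the immunoproteasome subunit Psmb8, at 237 and 85.6 CPM. B2m, the invariant chain of class I, was at 3796 CPM (3676 to 3918) and 2685 CPM (2589 to 2783). The 5 measured MHC class II genes were all 10 times higher in another lineage.

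Complement genes stood out in part. Of 12 measured members 4 were at least 2-fold higher and 1 at least 2-fold lower, with a median of 0.49. The higher ones were Cfb of the alternative pathway at 183 CPM (157 to 211) and 36.4 CPM (26.0 to 49.6), the central component C3 at 775 and 218 CPM, C2 at 75.5 and 23.7 CPM and C7 at 55.6 and 27.3 CPM. Serping1, the C1 inhibitor, had a log2 ratio of 0.21 and the protease C1s1 0.47.

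Among 17 cytokine receptors 3 were at least 2-fold higher and 1 lower. Beside Il17ra, these were Il13ra1, a subunit of the interleukin 13 receptor, at 66.5 and 20.9 CPM, and Il6st, the signalling subunit shared by interleukin 6 type cytokines, at 185 CPM (159 to 213) and 86.5 CPM (70.0 to 106). Il6ra, the subunit that binds interleukin 6, was lower at 29.8 CPM (20.1 to 42.5) and 68.3 CPM (53.7 to 85.6). The interferon receptors differed little. Ifngr1, Ifngr2, Ifnar1 and Ifnar2 had log2 ratios of -0.32, 0.07, -0.02 and 0.01.

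The axis of insulin-like growth factors was split. Of 12 measured members 3 were at least 2-fold higher and 4 at least 2-fold lower, and the median was -0.19, or 0.48 after thinning. The growth factor Igf1 itself was at 250 CPM (220 to 283) and 125 CPM (105 to 147). Of its carriers, Igfbp4 was higher and Igfbp3 lower as given above, Igfbp6 was lower at 142 and 303 CPM, and Igfbp7, with 5127 and 4228 UMIs, had a log2 ratio of 0.40.

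Matrix genes differed gene by gene. The collagen and cross-linking list had a median of 0.26 with 4 of 24 members at least 2-fold higher and 1 lower. Ctsk, a collagen-degrading protease, had 65 and 22 UMIs, and Col12a1, a collagen of fibril surfaces, had 13 and 0, so it was at least 4.72-fold higher. Pcolce2, an enhancer of procollagen processing, was lower at 1122 and 2054 CPM. Elastic fibre genes had a median of 0.25, although elastin (Eln) was at 681 CPM (631 to 734) and 1044 CPM (984 to 1106) and the fibre assembly gene Fbln5 at 132 and 251 CPM. Mfap4 (chromosome 11, 61485431 to 61488900, plus strand), a marker of these cells that the choice did not use, encodes a protein that binds elastic fibres. It was at 12548 CPM (12330 to 12769) and 18228 CPM (17976 to 18482), 1.45-fold lower (1.42 to 1.49).

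The wound activation list had a median of 0.69, and 6 of 16 members were at least 2-fold higher. Thbs1, a matricellular protein, was at 629 and 249 CPM and the transcription factor Runx1 at 35.7 and 10.02 CPM. The contractile gene Acta2 was at 40.7 CPM (29.2 to 55.2) and 14.6 CPM (8.33 to 23.7), while Cyr61 and Ctgf had log2 ratios of -0.01 and -0.48.

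Lists linked to the support of the alveolus lay slightly below all genes. Of 10 retinoid genes 1 was above 0, and the median was -0.47 with 0 past 2-fold. Aldh1a1, a retinal dehydrogenase, was at 694 CPM (644 to 747) and 974 CPM (917 to 1035), and Lrat, which esterifies retinol for storage, at 246 and 297 CPM. The median of 17 alveolar niche growth factors was -0.21. Wnt2, a ligand for epithelium, was at 215 CPM (188 to 246) and 285 CPM (254 to 318), Fgf7 at 115 and 174 CPM, Bmp4 at 250 and 321 CPM and Angpt1 at 102 and 142 CPM. Igf1 and Lif were the members at least 2-fold higher. Lipid genes had a median of -0.34, and Mgll, the lipase of monoglycerides, was at 36.7 and 89.2 CPM.

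Transcription factors of lung mesenchyme had a median of -0.19, and 6 of 27 were above 0. Tbx2 was at 133 CPM (111 to 158) and 254 CPM (225 to 286), Hoxb5 at 33.8 and 68.3 CPM and Klf9, a target of glucocorticoids, at 261 and 434 CPM. Osr1 lay the other way at 64.5 and 31.9 CPM. Foxf2, Tbx4 and Tbx5 had log2 ratios of 0.12, -0.04 and -0.12. Amino acid transporters, a list that spans several gene families, had a median of -0.27 with 1 of 10 above 0. Slc1a4, which like Slc7a10 carries small neutral amino acids, was at 71.5 CPM (55.9 to 90.03) and 148 CPM (127 to 173).

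Genes of detoxification and metal binding differed in both directions within 1 list, whose median was -0.09. The metallothioneins Mt1 and Mt2, which bind zinc and copper, were at 2607 and 1042 CPM and at 1307 and 340 CPM, and the mitochondrial superoxide dismutase Sod2 at 581 and 214 CPM. Inmt, an amine N-methyltransferase abundant in lung, was lower at 6455 CPM (6299 to 6614) and 11810 CPM (11608 to 12016). The oxygenase Fmo2 was at 255 and 461 CPM and the glutathione transferase Gstm1 at 742 and 1236 CPM.

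The Slc7a10 and Tcf21 fibroblasts were then set against the other alveolar fibroblasts of the same library, 377 and 53 cells. Because the choice sorted the cells by their RNA, these ratios describe the state and are no test. Of 5196 gene IDs with at least 30 UMIs in each library, 80 (1.54%) were at least 2-fold higher in both libraries and 42 (0.808%) at least 2-fold lower. After thinning the counts were 29 and 10, and among cells of 2000 to 6000 UMIs they were 39 and 25. None of the 80 and 14 of the 42 were 10 times higher in another lineage.

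The gene that stood highest above the other states by the rule for named genes was Mettl7a1 (chromosome 15, 100304140 to 100328662, plus strand), a methyltransferase-like gene of the lipid droplet. It was at 722 CPM against 138 in other alveolar fibroblasts of the Cherry_positive library, a ratio of 5.24 (4.59 to 5.999), and at 1421 against 357 in the Cherry_negative library, a ratio of 3.98 (3.18 to 5.04). Cdo1, which breaks down cysteine, had ratios of 2.88 (2.59 to 3.21) and 3.05 (2.43 to 3.88), and Aldh1a1 2.88 (2.57 to 3.22) and 2.45 (1.97 to 3.08). Igfbp3 had 5.14 (3.76 to 7.09) and 2.90 (2.09 to 4.15), so the carrier that was lower with the Cherry signal also marked the state within each library. The cell cycle inhibitor gene Cdkn2c had 2.48 (2.07 to 2.97) and 4.23 (2.88 to 6.48).

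Further genes named by the same rule were Mfap4 with 2.74 (2.67 to 2.81) and 2.70 (2.56 to 2.85) and Nebl, an actin-binding gene of the marker list, with 2.65 (2.26 to 3.11) and 2.56 (1.94 to 3.45). Selenbp1 had 3.23 and 2.37, the aldehyde dehydrogenase Aldh2 2.42 and 2.20, the secreted glutathione peroxidase Gpx3 1.91 and 1.96, and the phosphatase Dusp1 2.09 and 2.26. Epha1, an ephrin receptor, had 4.98 (2.78 to 9.26) and 5.71 (1.89 to 28.2), the latter over 3 UMIs in the other Cherry_negative cells. The list of immediate early genes, which holds Dusp1, had medians of 0.48 and 0.61, with 1 of 20 members at least 2-fold higher in both libraries and 1, Nr4a2, at least 2-fold lower in both. Amino acid transporters had medians of 0.41 and 0.63 and lung mesenchyme transcription factors 0.30 and 0.40, where all genes had 0.07 and 0.03.

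**Figure D4:**
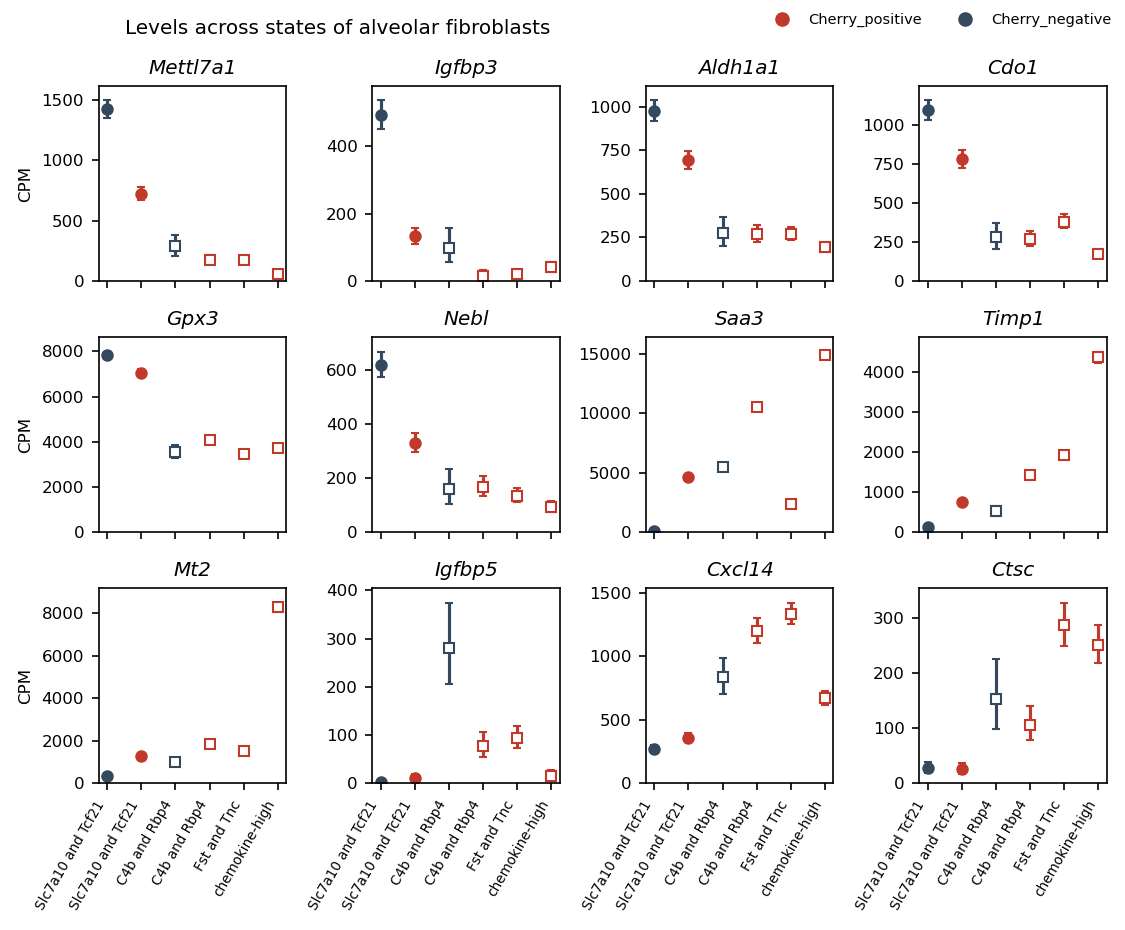
Levels in CPM (points) with exact 95% Poisson intervals (bars) in the Slc7a10 and Tcf21 state (filled circles) and in each other state with at least 30 cells (open squares), by library, each axis starting at 0. Mettl7a1 ranges from 1421 CPM in the Cherry_negative Slc7a10 and Tcf21 state to 58.5 CPM in the Cherry_positive chemokine-high state, and Saa3 stands at 4666 CPM in the Cherry_positive Slc7a10 and Tcf21 state against 2390 CPM in the Fst and Tnc state.

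Timp1, Mt2 and Igfbp5 were among the 12 genes named at lower levels than in the other states. Igfbp5 was at 10.9 against 54.8 CPM in the Cherry_positive and 3.64 against 223 CPM in the Cherry_negative library, ratios of 0.199 (0.0970 to 0.369) and 0.0163 (0.00428 to 0.0444). Timp1 had ratios of 0.295 and 0.181, Mt2 0.324 and 0.307, the chemokine gene Cxcl14 0.379 and 0.356, the lysosomal protease Ctsc 0.122 and 0.235 and the protease inhibitor Serpina3g 0.397 and 0.239. S100a6, Gm12840, the nuclear receptor Nr4a2 and Thbs1 had ratios between 0.211 and 0.478 over both libraries. Ctsc was at 843 CPM in Cherry_negative epithelial cells, against 27.3 CPM in the chosen cells. S100a6 was at 13881.5 CPM in Cherry_positive epithelial cells, against 915 CPM in the chosen cells. The part of epithelial RNA in these 2 ratios was not tested. Cyp2f2 and Wfdc2, genes of airway epithelium, were also named on this side. Their direction turned in the Cherry_positive library after thinning, to log2 ratios of 0.37 and 0.66, and that of Wfdc2 also in the Cherry_negative library, to 0.75. Serpina3g in the Cherry_negative library moved from -2.07 to -0.95 without cells of low Malat1.

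The level of Saa3 did not separate this state from every other. In the Cherry_positive library it was 4666 CPM in the Slc7a10 and Tcf21 state, 2390 in the Fst and Tnc state, 10534 in the C4b and Rbp4 state and 14897 in the chemokine-high state. In the Cherry_negative library it was 96.5 CPM in the Slc7a10 and Tcf21 state and 5480 in the C4b and Rbp4 state. Timp1 followed another order in the Cherry_positive library, with 766, 1936, 1430 and 4370 CPM in the same states. Mettl7a1 was highest in the Slc7a10 and Tcf21 state of each library, with 722 CPM against 175, 176 and 58.5 in the other Cherry_positive states and 1421 against 287 CPM in the C4b and Rbp4 state of the Cherry_negative library. Inmt ranked the same way in the Cherry_positive library, with 6455 CPM against 1373, 4116 and 792 CPM.

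By their medians, interferon-linked lists lay below the other states in the Cherry_positive library and nearer to them in the Cherry_negative one. The median log2 ratio of the interferon gamma list was -1.21 and 0.13, yet 3 of 14 members were at least 2-fold lower in both libraries. Type I interferon genes had medians of -0.54 and 0.17, with 0 of 16 members at least 2-fold lower in both. MHC class I genes stood at -0.98 and -0.33, with 2 of 17 at least 2-fold lower in both libraries. The median of the wound activation list was -1.06 and -0.61, with 5 of 16 members so. The chemokine-high state, which the choice removed by its chemokine RNA, is among the other Cherry_positive states. Cytokines and acute phase genes had medians of -0.78 and -0.95. By the rule for lists, 1.59% of 8643 gene IDs were at least 2-fold higher in both libraries and 1.49% lower.

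Cells of the same library differed widely in a few genes. In cells thinned to 2000 UMIs, 237 and 290 in number, the Fano factor, the variance over the mean that random sampling places near 1, had medians of 1.07 and 1.05 over 2514 genes. The genes with the largest values in both libraries were Malat1, Saa3, Mfap4, Hp, Mt1, Mt2, Inmt, Gm26870, Actb and Mgp. Saa3 had 65.3 and 29.9, Malat1 62.3 and 53.9, Mfap4 21.8 and 21.6 and Hp 24.96 and 16.9. At a given relative spread the factor rises with the mean, so abundant genes rank high more easily. Mean UMIs per thinned cell were 71.7 and 109 for Malat1 and 26.9 and 36.6 for Mfap4, but 9.95 and 0.259 for Saa3. Malat1, an RNA of the nucleus, varied more at its lower end in the Cherry_positive library, where 1 cell in 10 had 2 UMIs or fewer against 31.9 in the Cherry_negative library.

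**Figure D5:**
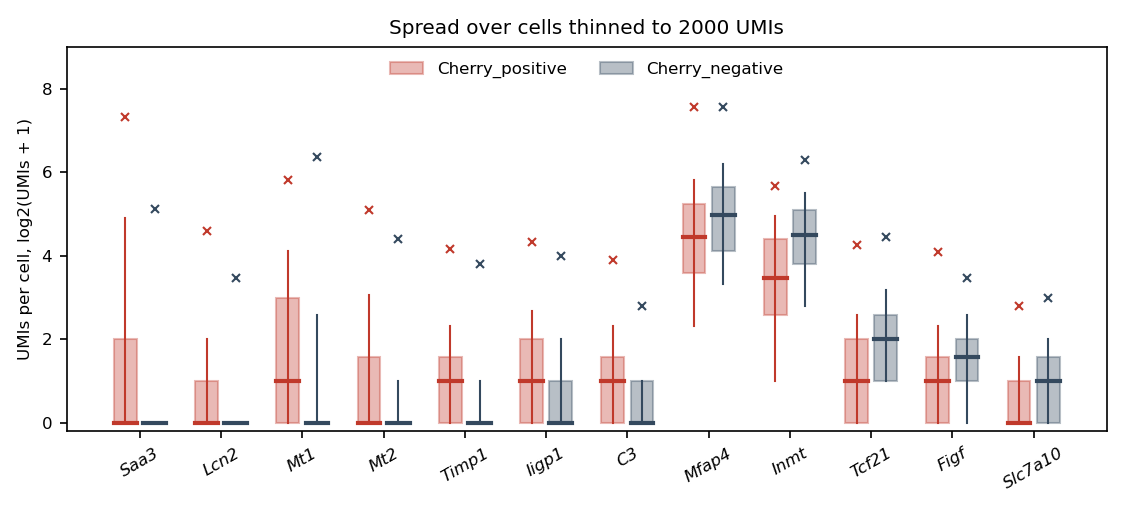
UMIs per cell after thinning each cell to 2000 UMIs, on the scale log2(UMIs + 1), for 12 genes in 237 Cherry_positive and 290 Cherry_negative cells. Thick lines are medians, boxes span the quartiles, thin lines the 10th to 90th percentiles and crosses the highest cell. Saa3 reaches 160 UMIs in a Cherry_positive cell while the median cell has 0 in both libraries, and the median of Inmt is 10 and 21.5 UMIs.

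Most Saa3 RNA was held by a few cells at high levels. After thinning, 50.2% of Cherry_positive cells had no Saa3 UMI, the highest cell had 160, and the 24 highest cells held 77.1% of the UMIs. In the Cherry_negative library 97.2% of cells had none and the highest had 34. Lcn2 was absent from 71.3% and 92.1% of cells, Mt2 from 58.6% and 87.6% and Timp1 from 48.1% and 89.0%. Mfap4, in contrast, was absent from 1.27% and 1.03% of cells with medians of 21 and 30.5 UMIs. Inmt had medians of 10 and 21.5 UMIs and Tcf21 of 1 and 3.

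Some of these genes varied together over Cherry_positive cells. Spearman correlations over the 237 thinned cells, which share 1 library and a fixed depth, were 0.55 for Mt1 and Mt2, 0.51 for Lcn2 and Saa3, 0.45 for Inmt and Mfap4, 0.42 for Mt2 and Timp1 and 0.40 for Mgp and Timp1. Pairs across the 2 groups ran the other way, with -0.33 for Mfap4 and Timp1, -0.31 for Inmt and Mt2 and -0.25 for Inmt and Saa3. Over the 290 Cherry_negative cells, where Saa3 and Lcn2 were absent from most, the pair of Mt1 and Mt2 at 0.46 was the only one of these genes above 0.3.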

How the data were processed

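The deposited matrices of both libraries hold raw counts of UMIs for 27998 gene IDs, per the labels from Chromium 3' libraries. The submitters' processing notes list the build mm10 beside Cell Ranger 2.1.1, R 4.0.3 and Seurat 4.0.2, without their settings. Sums and intervals came from scipy 1.17.1 and numpy 2.4.6, tables from pandas 2.3.3 and figures from matplotlib 3.10.9, under Python 3.11.15. No doublet caller was run, and the alternative without cells holding a UMI of another lineage stands in for it. The cells, markers and 28 gene lists were chosen with earlier results of these data known. UMIs were summed over cells, with exact Poisson intervals, binomial-share intervals for ratios and exact binomial intervals for shares. List ratios had 0.5 added to each count. A gene at 0 was set against a floor of 3 counts, 2.98 and 2.73 CPM. Reads of 1 molecule share a UMI, and intervals cover counting error only.

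Named genes between libraries had at least 30 UMIs over both and 20 CPM in either. The 12 each way whose interval bound nearest 1 lay farthest from 1 were taken, and against other alveolar fibroblasts the worse library decided. The 10 largest Fano factors, by the lower library, were named too. These rules passed over the 44 genes of the choice and genes of immunoglobulins, haemoglobins, ribosomal proteins and mitochondria. Genes with 10 times the level in endothelial, epithelial or leukocyte cells were passed over too. Between libraries and for Fano factors, this was judged in whichever library had more of the gene. Against other alveolar fibroblasts it was judged in either library, against the higher level of the chosen and the other cells. List members and markers may be named all the same. Mx2, C1s, Cebpd, Trbc1, Ltbp4, Gbp6 and Ccl19 could not be used. Gene positions are from GENCODE M21. The scripts were tested on simulated data. Alternatives were other cell filters, margins, depths, scalings and gene filters, and 5% of free RNA subtracted. Leaving out genes of other lineages, shared barcodes and cells of low Malat1 was added after seeing the data.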

Additional observations from a re-analysis of the deposited data

Results flagged for a closer look

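Some genes lay on opposite sides of the other alveolar fibroblasts in the 2 libraries, past 2-fold each way. Ccl2, the monocyte attractant, had a log2 ratio of -3.25 with the Cherry signal and 3.21 without it. In the Cherry_negative library the other alveolar fibroblasts held 6 UMIs of it, and 1 chosen cell held 23.8% of those in the chosen cells. Fstl3, which encodes a binder of activin, had -1.02 and 1.22, over 2 UMIs in the other Cherry_negative cells. Id1, a target of bone morphogenetic proteins, had 1.15 and -1.03. The chemokine-high and the Fst and Tnc states made up 240 of the 377 other Cherry_positive cells and 7 of the 53 other Cherry_negative cells. The difference between the libraries was not tested, since each had 1 sample.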

How the results depend on the processing

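Of the list medians 22 of 28 kept their sign under all alternatives, as did 22 of 24 gene ratios between libraries and 45 of 48 against other alveolar fibroblasts. No paired analysis was possible because each group has 1 library. Trimmed mean scaling would shift log2 ratios by -0.02 between libraries and by 0.07 and -0.07 against other alveolar fibroblasts. With an excess of at least 3 UMIs the Slc7a10 and Tcf21 state held 10.2% of kept Cherry_positive cells and 29.2% and 81.2% of alveolar fibroblasts. Without cells holding a UMI of another lineage it held 17.4% and 39.1% of kept cells, since that also removes endothelial and epithelial cells, and 26 genes were 2-fold lower than in other alveolar fibroblasts. After thinning it held 43.6% of Cherry_positive alveolar fibroblasts, with 29 genes higher and 10 lower than in the others. Among cells of 2000 to 6000 UMIs it held 16.3% and 16.5% of kept cells and 46.2% of Cherry_positive alveolar fibroblasts, with 39 and 25 genes. With at least 10 UMIs the counts between libraries were 446 and 692 and those against the others 178 and 126, and with at least 100 UMIs they were 61, 57, 32 and 18, by construction of the filter.

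Values that turned are given next, and the cause was not tested. The log2 ratio of Gprc5a between libraries was 2.31 without cells of another lineage, 2.60 after thinning and 2.74 at 2000 to 6000 UMIs, and that of Krt7 was 1.87 after thinning. In the Cherry_positive library Cyp2f2 against other alveolar fibroblasts was 0.37 after thinning, 0.35 at 2000 to 6000 UMIs and 1.17 without cells of low Malat1, and Wfdc2 was 0.66 and 0.0449 under the first 2 of these. Wfdc2 in the Cherry_negative library was 0.75 after thinning. The proliferation median of 1.40, over 6 members, was -0.33 with an excess of 3 UMIs, -0.50 at 2000 to 6000 UMIs, -0.30 without genes of other lineages and -0.48 without cells of low Malat1. The MHC class II median of -1.52 was 2.80 with 5% free RNA subtracted. The other 4 list medians that crossed 0 did so from -0.19 up to 0.48 (insulin-like growth factor binding, after thinning), from -0.46 to 0.02 (growth factor receptors, with free RNA subtracted), from -0.04 up to 0.13 (Wnt pathway, without cells of another lineage) and from -0.09 up to 0.11 (metallothionein and oxidative stress, at 2000 to 6000 UMIs). Genes under about 3 CPM could not be compared at this depth.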

Other observations

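Genes of protein folding were slightly higher in the Cherry_positive cells. All 15 measured members of the list of unfolded protein and integrated stress response were above 0, with a median log2 ratio of 0.45 and none past 2-fold, where the median of all genes was -0.04. Hspa5, the chaperone BiP of the endoplasmic reticulum, was at 1132 CPM (1067 to 1200) and 616 CPM (570 to 664), and the list range over the alternatives was 0.32 to 0.52. Immediate early genes lay below, with a median of -0.25 over 20 members. Jund, a subunit of AP-1, was at 1478 CPM (1404 to 1555) and 3155 CPM (3051 to 3262), and Fos at 5057 and 6842 CPM. Glycolysis and hypoxia genes had a median of 0.11, nuclear genes of oxidative phosphorylation 0.10, basement membrane genes -0.23, and the BMP and TGF-beta pathway 0.08.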
